A study of Mus musculus with 6 samples.

Results

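Transcripts of lysosomal enzymes and membrane proteins were followed in RNA of cells labelled as bone marrow mesenchymal stromal cells from C57BL/6 mice, with and without deletion of Hes1, a transcriptional repressor that acts downstream of Notch. The set held 34 genes, chosen by symbol as well-known lysosomal hydrolases, their cofactors and lysosomal membrane proteins with the cathepsins left out. All 34 had a row in the deposited table, and all 34 were among the 14756 genes that passed the filter on low counts with all libraries and the 16190 that passed without WT replicate 1. There were 3 libraries of Hes1 knockout (Hes1 KO) and 3 of wild type (WT). Per the labels' protocols, the knockout combined a floxed Hes1 allele with the Prx1Cre transgene, whose promoter is active in early limb bud mesenchyme and part of the craniofacial mesenchyme. The protocols speak of heterozygous floxed mice, and the sources used here do not state whether 1 or both alleles were deleted in the Hes1 KO samples. They also leave unstated which of these alleles the WT mice carried, how old the mice were and whether each library is a separate animal. The p-values below therefore measure only the spread among libraries, which may be technical.

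Lysosomes are acidic organelles in which proteins, glycans, glycosaminoglycans, glycogen and lipids are broken down. Most of their soluble enzymes are tagged with mannose 6-phosphate in the Golgi and delivered by receptors that bind this tag, while heavily glycosylated membrane proteins line the organelle and transporters release the products. Loss of single enzymes causes lysosomal storage diseases. In bone marrow, macrophages and monocytes, which take up and digest cells and debris, are especially rich in these proteins. Many lysosomal genes are targets of the transcription factor TFEB and its relatives, which bind the CLEAR element, a palindrome built around the E-box CACGTG.

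The Hes1 KO libraries held 20563116 to 22131465 counts. WT replicate 2 held 5812598, WT replicate 3 held 12109170 and WT replicate 1 held only 66167, so that a single count in it was worth 15.1 CPM (counts scaled to the same total in every library). WT replicate 1 is therefore shown apart throughout, and the fold changes of members that rose without it are given with all 6 libraries as well. Hes1 itself had 185, 220 and 255 reads in the knockout libraries against 0, 310 and 345 in WT replicates 1, 2 and 3, and the 0 does not check a label at that depth. Those are raw reads, and every knockout library was deeper than WT replicates 2 and 3. At equal depth the gap to these 2 WT libraries is therefore wider. The labelled cell type was checked against 10 stromal markers. Their sum was 0.0142% to 0.0287% of a knockout library and 0.0952%, 0.0188% and 0.00583% of WT replicates 1, 2 and 3, where the first of these values rests on 63 counts. Runx2 alone supplied 80.5% to 96.8% of that sum, and the 9 other stromal markers together had 285 to 588 counts in a knockout library and 2, 213 and 49 in WT. In WT replicate 1, 7 of the 10 were at 0, among them Prrx1 and Col1a1. Neutrophil markers summed to 4.90% to 13.1% in the knockout libraries and 1.10%, 1.53% and 0.0361% in WT, and erythroid markers took 42.6% of WT replicate 3. Erythroid markers made up at most 0.321% of any other library. B cell markers summed to 0.0701% to 0.127% of a knockout library and to 0.0151%, 0.470% and 0.213% of WT replicates 1, 2 and 3. In the 5-library fit, without WT replicate 1, 0 of the 7 were higher, against 50.7% of all genes. Of the 7, 2 fell, against 8.09% of all genes, and their median was -1.81. The part of these cell types in the results below was not tested. Fewer cells of a type and less RNA per cell cannot be told apart in such bulk samples.

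By fitted fold change, all of the lysosomal genes were higher in Hes1 KO than in WT replicates 2 and 3, although single libraries overlapped for some members. Without WT replicate 1, all 34 had a positive log2 fold change (0.16 to 3.07), against 50.7% of genes, with a median of 1.14 against 0.02 for all 16190 genes tested. Of them 18 (52.9%) rose and 0 fell at an adjusted p under 0.05 (edgeR's quasi-likelihood test with Benjamini-Hochberg adjustment over all genes), against 7.44% of all genes rising and 8.09% falling. With all 6 libraries 0 of 34 members passed, as did 0 of 14756 genes (background 0%), and the lowest adjusted p of a member was 0.31. There 8 members (23.5%) had an unadjusted p under 0.05, against 14.9% of all genes, limma-voom called 0 members, and DESeq2 called 2, Cd63 and Asah1, both higher. DESeq2 called 1.5% of all genes higher and 793 genes in either direction. With 6 libraries 29 of 34 members were higher in Hes1 KO, against 51.4% of genes, with a median of 0.79 against 0.03 for all genes, and Npc2 and Psap changed sign with library size alone as the scaling. The 18 calls of the 5-library fit rest on all 3 Hes1 KO libraries and on the scaling. Without Hes1 KO replicate 1, 2 or 3 in turn, 0 members passed (lowest adjusted p 0.132, 0.112 and 0.108). In each of these fits 0 of all genes tested passed too. With library size alone in place of TMM scaling, 0 members and 0 of all genes passed (lowest adjusted p of a member 0.147). All 34 members kept a positive fold change there. Leaving out WT replicate 2 or WT replicate 3 in addition gave 22 and 26 members, against 14.6% and 17.1% of all genes called higher. Those fits hold a single WT library, which is assumed to vary as the Hes1 KO libraries do, and calls grew across all genes.

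**Figure D1:**
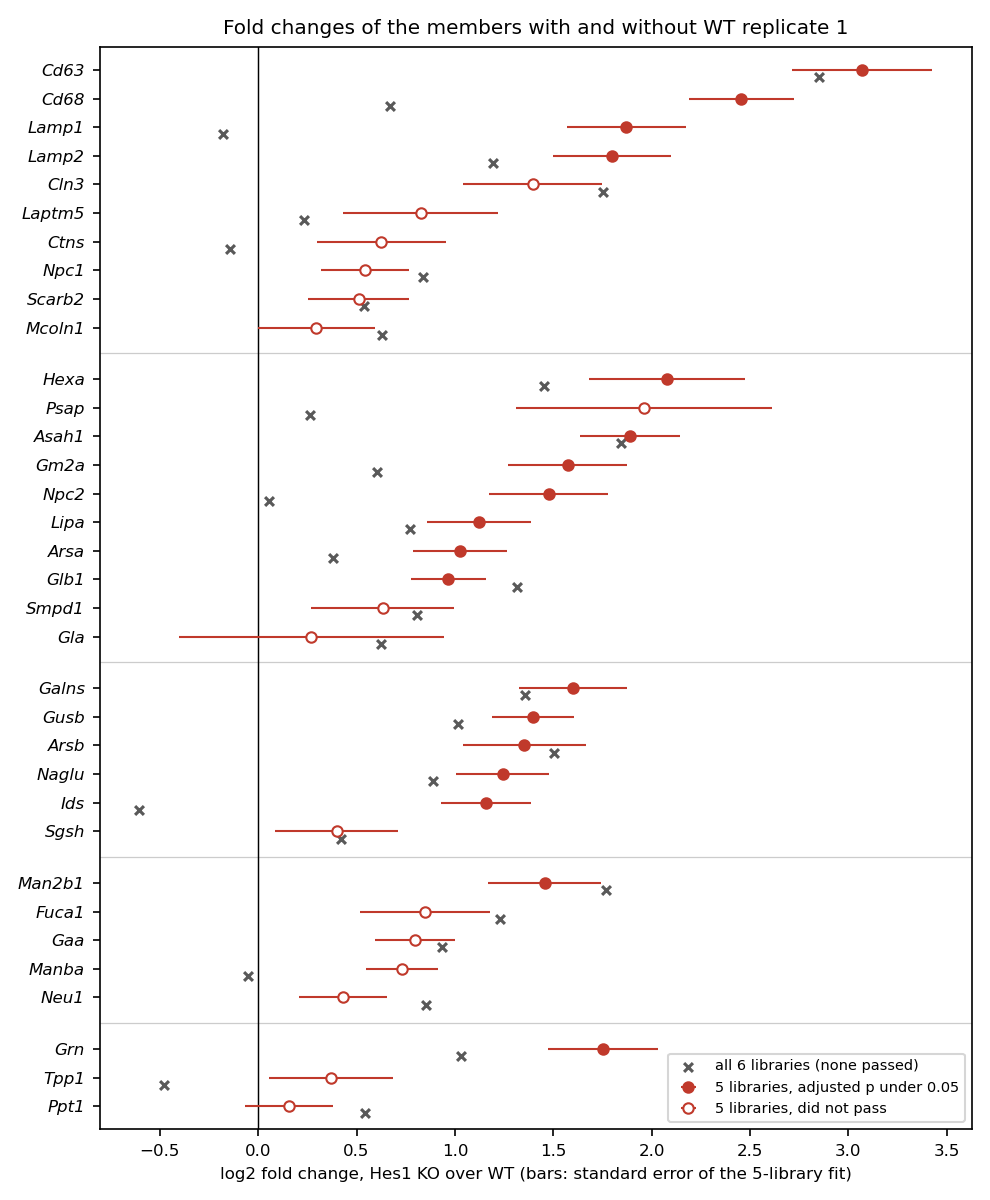
Log2 fold changes (Hes1 KO over WT) of the 34 members, grouped by role in the order membrane proteins, lipid breakdown, glycosaminoglycan breakdown, glycoprotein and glycogen breakdown, and protein processing. Circles show the 5-library fit with its standard error (filled where the adjusted p was under 0.05, 18 genes), and crosses the fit with all 6 libraries, in which 0 passed; all circles lie above 0, and the crosses of Lamp1, Ids, Tpp1, Ctns and Manba lie below 0.

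**Figure D2:**
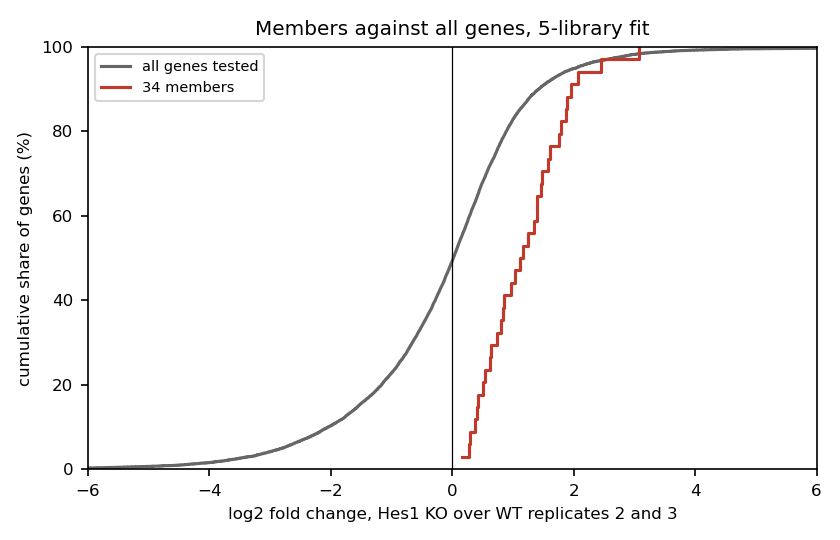
Cumulative share of genes (%) by log2 fold change in the 5-library fit, for all 16190 genes tested and for the 34 members. The curve of all genes crosses 50% near 0 (median 0.02), and that of the members starts at 0.16 and crosses 50% at a median of 1.14.

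Levels are given below as normalised CPM, which are CPM after TMM scaling of all 6 libraries. On that scale every Hes1 KO library lay above every WT library for 18 of the 34 members (52.9%), against 22.5% of all genes tested, and below every WT library for 0 members, against 5.15%. Compared with WT replicates 2 and 3 only, this held for 27 members (79.4%), against 29.1% of all genes. WT replicate 1 lay below every Hes1 KO library for 23 members and above every one for 11. Of the 11 high values, 7 had a 95% counting interval (Wilson) that lay wholly above Hes1 KO, and of the 23 low values, 10 had an interval wholly below. The intervals of the 17 others reached into the Hes1 KO range, and 21 members had 10 or fewer counts in that library. Such intervals cover counting error only.

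**Figure D3:**
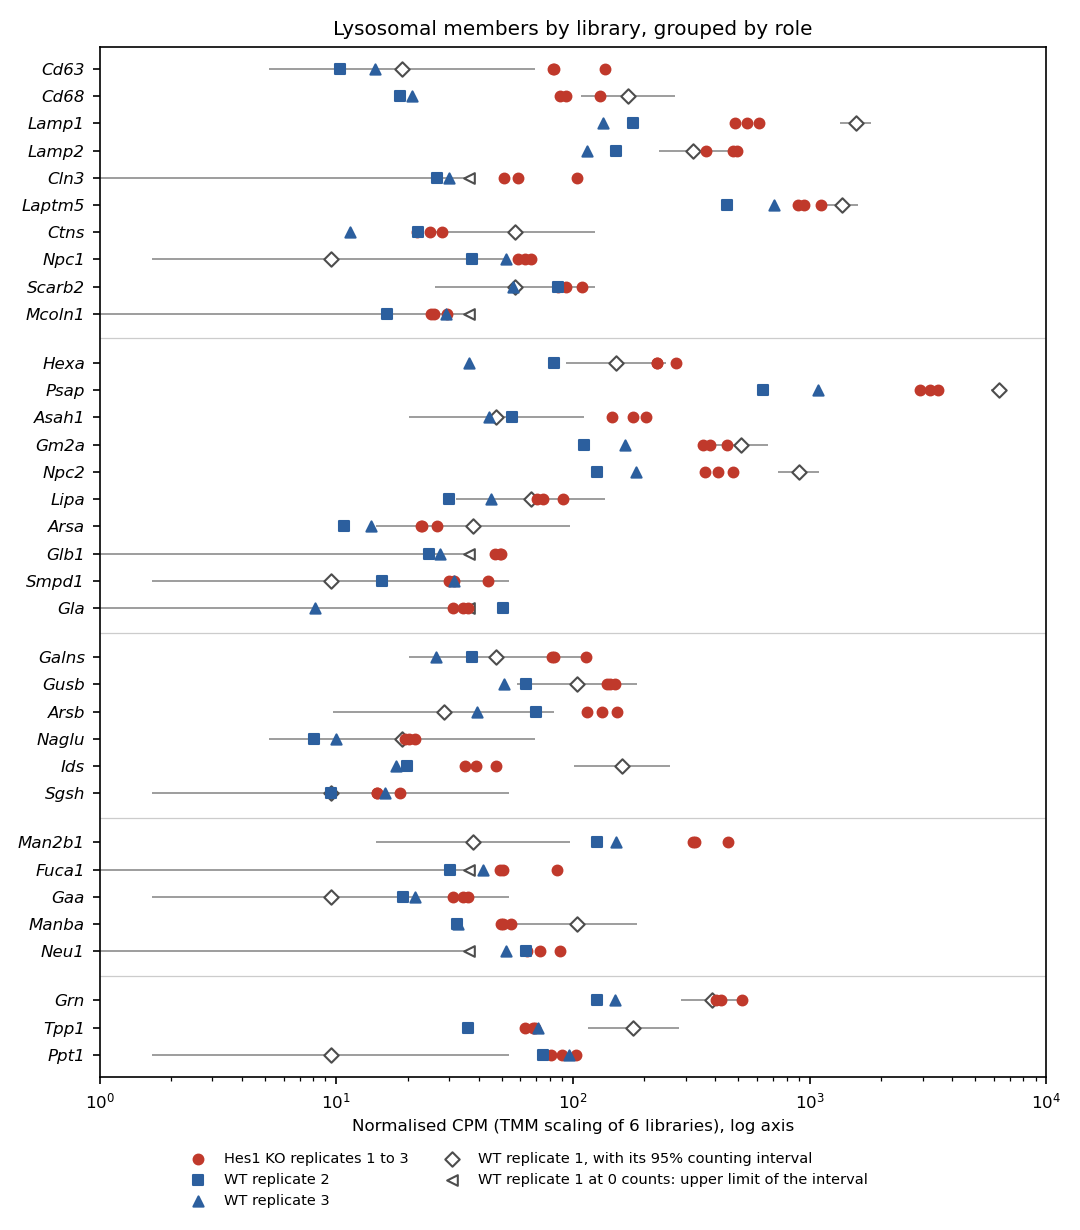
Normalised CPM (log axis) of each of the 34 members in each library, grouped by role as in the plot of fold changes, with the 95% Wilson interval of WT replicate 1 as a grey line that is drawn from 1 where its lower end is below 1. The 3 Hes1 KO libraries lie close together, right of WT replicates 2 and 3 for 27 members, while WT replicate 1 lies on either side, at up to 6317 for Psap.

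The promoters of the members were read for the element through which TFEB and its relatives act. RefSeq windows from 250 bases before to 50 after a transcription start (GRCm38.p6) were matched by symbol for 31 of the 34 members, not for Npc1, Asah1 and Galns. The E-box CACGTG, which reads the same on both strands, was found in the windows of 9 members (29%), against 8.09% of 27025 genes. The longer core TCACGTGA, which contains it, was found in 3 members, Gla, Cln3 and Mcoln1, against 1.12% of genes. The full CLEAR palindrome, which is this core with G before it and C after it, was found in 1 member, Cln3, against 0.37% of genes. Of the 16 members with a window that rose in the 5-library fit 4 had the E-box and 0 the longer core, and of the 15 that did not pass 5 had the E-box and 3 the core. The N-box CACNAG and the class C site CACGCG, both bound by Hes repressors and both searched on either strand, were in 15 and 2 members, or 48.4% and 6.45%, against 46.1% and 10.5% of genes. A match is a stretch of letters and not a measured binding site. The upstream stretches around the E-boxes are shown because they set members that rose beside members that did not. Each is written 5′ to 3′ on the gene's strand with CACGTG in capitals, and the first 4 belong to genes that rose.
Lamp1, chr8:13159080-13159160, plus strand: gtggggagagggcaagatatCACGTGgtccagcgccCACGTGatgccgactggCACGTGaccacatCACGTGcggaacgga
Glb1, chr9:114401010-114401055, plus strand: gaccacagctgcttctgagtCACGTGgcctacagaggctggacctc
Naglu, chr11:101070001-101070046, plus strand: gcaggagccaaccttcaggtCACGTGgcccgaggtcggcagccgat
Arsa, chr15:89477425-89477460, minus strand: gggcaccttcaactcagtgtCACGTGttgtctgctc
Gla, chrX:134601174-134601252, minus strand: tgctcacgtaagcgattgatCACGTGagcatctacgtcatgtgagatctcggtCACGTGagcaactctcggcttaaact
Cln3, chr7:126583332-126583405, minus strand: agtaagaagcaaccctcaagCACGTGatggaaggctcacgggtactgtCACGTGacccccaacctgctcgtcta
Mcoln1, chr8:3500428-3500499, plus strand: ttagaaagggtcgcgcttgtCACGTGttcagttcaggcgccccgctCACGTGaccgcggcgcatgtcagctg
Gaa, chr11:119267803-119267848, plus strand: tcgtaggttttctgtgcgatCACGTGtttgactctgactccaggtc
Sgsh, chr11:119355514-119355559, minus strand: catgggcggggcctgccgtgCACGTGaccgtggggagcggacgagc
Lamp1 carried 4 copies, between 61 and 15 bases upstream of its start, and 5 of the 27025 genes (0.0185%) had at least 4 upstream copies. At least 2 upstream copies were found in 4 members, Lamp1, Gla, Cln3 and Mcoln1, against 0.5% of genes.

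Among the 10 membrane proteins 4 rose in the 5-library fit (Cd63, Cd68, Lamp1 and Lamp2), and the median log2 fold change was 1.11. For this role and those below, the matching values over all genes were 7.44% rising and a median of 0.02. Cd63, a tetraspanin of late endosomes, lysosomes and exosomes, was at 82.1, 136 and 82.9 normalised CPM in Hes1 KO and at 18.9 (from 2 counts), 10.3 and 14.6 in WT replicates 1, 2 and 3. The groups did not overlap, and the interval of WT replicate 1 (5.19 to 69.1) also ended below Hes1 KO. Cd63 had the largest fold change of the set, 3.07 (log2, SE 0.36, edgeR, adjusted p = 0.0294), or 8.40-fold, and 2.85 (SE 0.43, adjusted p = 0.31) with all 6 libraries. Cd68, a macrophage-rich relative of the Lamp proteins, was at 87.9, 129 and 93.2 normalised CPM in Hes1 KO and at 170 (18 counts), 18.5 and 20.9 in WT replicates 1, 2 and 3. WT replicate 1 thus lay above every Hes1 KO library, although its interval (108 to 269) reached into them, while the other WT libraries lay far below. The fold change was 2.46 (SE 0.27, edgeR, adjusted p = 0.0294) without WT replicate 1 and 0.67 with it. Lamp1, a main glycoprotein of the lysosomal membrane, was at 544, 613 and 484 normalised CPM in Hes1 KO and at 1563 (165 counts), 179 and 134 in WT replicates 1, 2 and 3. Its value in WT replicate 1 (interval 1342 to 1820) was above every Hes1 KO library, and its fold change of 1.87 (SE 0.30, adjusted p = 0.0303) was -0.18 with all 6 libraries. Lamp2, its partner, which also serves chaperone-mediated autophagy, was at 476, 493 and 364 normalised CPM in Hes1 KO and at 322 (34 counts), 152 and 115 in WT. Here all WT libraries lay below Hes1 KO, although the interval of WT replicate 1 (230 to 450) reached into it, and Lamp2 rose by 1.80 (log2, SE 0.30, adjusted p = 0.0304), with 1.19 in the fit of all 6.

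The other 6 membrane proteins did not pass. Cln3, a protein lost in juvenile Batten disease, came closest with a log2 fold change of 1.39 (edgeR, adjusted p = 0.0531), and its Hes1 KO values were uneven at 51.2, 104 and 58.8 normalised CPM. Laptm5, a lysosomal protein of blood cells, was at 892 to 1115 normalised CPM in Hes1 KO and at 1364, 449 and 707 in WT replicates 1, 2 and 3. Npc1, the cholesterol exporter of the lysosomal membrane, Ctns, the cystine exporter, Scarb2, the receptor that carries glucocerebrosidase to lysosomes, and Mcoln1, a calcium channel, had log2 fold changes of 0.54, 0.63, 0.51 and 0.30. Mcoln1 overlapped between the groups, with WT replicate 3 (29.2) within the Hes1 KO range (25.1 to 29.4 normalised CPM).

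Of the 10 genes for sphingolipid and neutral lipid breakdown 7 rose in the 5-library fit, with a median log2 fold change of 1.30 over the 10. Hexa, the alpha subunit of beta-hexosaminidase A, which trims ganglioside GM2, was at 227, 271 and 226 normalised CPM in Hes1 KO and at 152 (16 counts), 83.2 and 36.5 in WT replicates 1, 2 and 3. The WT libraries were spread widely but lay below Hes1 KO, although the interval of WT replicate 1 (93.3 to 246) reached into it, and Hexa rose by 2.08 (log2, SE 0.40, edgeR, adjusted p = 0.0338), with 1.45 in the fit of all 6. Gm2a, the activator protein that presents GM2 to this enzyme, was at 381, 448 and 355 normalised CPM in Hes1 KO and at 511 (54 counts), 111 and 165 in WT. It was highest in WT replicate 1, and it rose by 1.57 (SE 0.30, adjusted p = 0.0338) without that library and had a value of 0.60 with it. Asah1, acid ceramidase, was at 179, 203 and 146 normalised CPM in Hes1 KO and at 47.4 (5 counts), 55.3 and 44.0 in WT. All WT values lay within a narrow band below Hes1 KO, although that of WT replicate 1 had a wide interval (20.2 to 111), also below Hes1 KO. Asah1 had fold changes of 1.89 (SE 0.25, edgeR, adjusted p = 0.0294) and, with all 6 libraries, 1.85 (SE 0.34, adjusted p = 0.31). Npc2, the soluble carrier that hands cholesterol to Npc1, was at 409, 473 and 360 normalised CPM in Hes1 KO and at 900 (95 counts), 126 and 184 in WT. Its WT libraries lay on both sides of Hes1 KO, and it rose by 1.48 (SE 0.30, adjusted p = 0.0379) without WT replicate 1 against 0.05 with it.

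Lipa, the acid lipase that frees cholesterol from its esters, was at 70.5, 90.4 and 74.4 normalised CPM in Hes1 KO and at 66.3 (7 counts), 29.9 and 45.2 in WT replicates 1, 2 and 3. Its values did not overlap between groups, but the interval of WT replicate 1 (32.1 to 137) covered the whole Hes1 KO range. Lipa rose by 1.12 (log2, SE 0.27, edgeR, adjusted p = 0.0465), with 0.77 in the fit of all 6. Arsa, which removes sulfate from sulfatide, was at 22.9, 26.7 and 22.9 normalised CPM in Hes1 KO and at 37.9 (4 counts), 10.8 and 14.0 in WT. WT replicate 1 was the highest library, but its interval (14.7 to 97.4) covered the Hes1 KO range. Arsa rose by 1.03 (SE 0.24, edgeR, adjusted p = 0.0456) without WT replicate 1 against 0.38 with it. Glb1, acid beta-galactosidase, was at 46.7, 49.2 and 49.9 normalised CPM in Hes1 KO and at 0 (upper end of the Wilson interval 36.4), 24.5 and 27.3 in WT. The groups did not overlap, and Glb1 rose by 0.97 (SE 0.19, adjusted p = 0.0351), with 1.31 in the fit of all 6. The calls of Lipa and Arsa were close to the threshold: with RLE scaling both kept their direction but had adjusted p = 0.0547 and 0.0535, and they were the only 2 of the 18 lost there.

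Psap, the precursor of the saposins that help several sphingolipid enzymes, was the most abundant member. It was at 3215, 3474 and 2933 normalised CPM in Hes1 KO and at 6317 (667 counts), 632 and 1085 in WT replicates 1, 2 and 3. Its log2 fold change of 1.96 (SE 0.65) was among the larger ones but did not pass (edgeR, adjusted p = 0.0871), and it was 0.26 with all 6 libraries. Smpd1, acid sphingomyelinase, and Gla, alpha-galactosidase A, did not pass either (0.63 and 0.27). Gla was at 50.5 normalised CPM in WT replicate 2 and 8.13 in WT replicate 3, on both sides of its Hes1 KO range of 31.2 to 36.0.

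Glycosaminoglycan breakdown was the role with the highest share of calls, 5 of 6, against 7.44% of all genes rising. Its median log2 fold change was 1.30, and the shares of such small roles were not tested against each other. Galns, which removes sulfate from keratan and chondroitin sulfate, was at 81.3, 114 and 83.4 normalised CPM in Hes1 KO and at 47.4 (5 counts), 37.6 and 26.3 in WT replicates 1, 2 and 3. Its values kept the groups apart, although the interval of WT replicate 1 (20.2 to 111) reached into Hes1 KO, and it rose by 1.60 (SE 0.27, edgeR, adjusted p = 0.031), with 1.36 in the fit of all 6. Gusb, beta-glucuronidase, was at 151, 143 and 139 normalised CPM in Hes1 KO and at 104 (11 counts), 63.1 and 51.3 in WT. Its values did not overlap between groups, although the interval of WT replicate 1 (58.2 to 187) covered Hes1 KO, and it rose by 1.40 (SE 0.21, adjusted p = 0.03), with 1.01 in the fit of all 6. Arsb, which removes sulfate from dermatan and chondroitin sulfate, was at 154, 115 and 132 normalised CPM in Hes1 KO and at 28.4 (3 counts), 70.0 and 39.4 in WT. All WT libraries lay lower, and Arsb rose by 1.35 (SE 0.31, adjusted p = 0.0447), with 1.51 in the fit of all 6. Naglu, a heparan sulfate glucosaminidase, was at 19.5, 21.6 and 20.3 normalised CPM in Hes1 KO and at 18.9 (2 counts), 8.04 and 10.0 in WT. WT replicate 1 fell just short of Hes1 KO with an interval of 5.19 to 69.1, and Naglu rose by 1.24 (SE 0.24, adjusted p = 0.0336), with 0.89 in the fit of all 6. Ids, which removes sulfate from heparan and dermatan sulfate, was at 47.3, 39.0 and 35.0 normalised CPM in Hes1 KO and at 161 (17 counts), 19.9 and 17.9 in WT. It stood far above Hes1 KO in WT replicate 1, with fold changes of 1.16 (SE 0.23, adjusted p = 0.0355) without that library and -0.61 with it. Sgsh, the heparan N-sulfatase, had a fold change of 0.40 and did not pass. Of the 5 sulfatases in the set (Arsa, Arsb, Galns, Ids and Sgsh) 4 therefore rose in the 5-library fit, as did Sumf1, the enzyme that activates all sulfatases, by 1.11 (SE 0.21, adjusted p = 0.033). In WT replicate 1 Sumf1 was at 142 normalised CPM from 15 counts, above every Hes1 KO library (41.6 to 47.5), and its fold change with that library was -0.37.

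Glycoprotein and glycogen breakdown had 1 call among 5 genes, with a median log2 fold change of 0.80. Man2b1, lysosomal alpha-mannosidase, was at 329, 451 and 322 normalised CPM in Hes1 KO and at 37.9 (4 counts), 127 and 153 in WT replicates 1, 2 and 3. Its 3 WT libraries lay below Hes1 KO, and it rose by 1.46 (SE 0.29, edgeR, adjusted p = 0.0355), with 1.77 in the fit of all 6. Manba (beta-mannosidase), Gaa (acid alpha-glucosidase, which digests glycogen), Fuca1 (alpha-fucosidase) and Neu1 (sialidase) had fold changes of 0.73, 0.80, 0.85 and 0.43. Manba and Gaa lay just outside the threshold (edgeR, adjusted p = 0.0521 and 0.053), and both had every Hes1 KO library above WT replicates 2 and 3. In WT replicate 1 Manba was at 104 normalised CPM (11 counts, interval 58.2 to 187), above every Hes1 KO library (49.6 to 55.0). Its fold change with that library was -0.05. Gaa was at 9.47 there, from 1 count.

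Of the 3 genes for protein and lipoprotein processing, Grn rose. Grn, which encodes progranulin, a secreted and lysosomal protein, was at 422, 519 and 401 normalised CPM in Hes1 KO and at 388 (41 counts), 127 and 150 in WT replicates 1, 2 and 3. WT replicate 1 lay close below the lowest Hes1 KO library, and its interval (286 to 527) covered the Hes1 KO range. The fold change was 1.75 (SE 0.28, edgeR, adjusted p = 0.0302) without WT replicate 1 and 1.03 with it. Tpp1, a tripeptidyl peptidase, and Ppt1, a thioesterase that removes palmitate from proteins, are both lost in neuronal ceroid lipofuscinoses, and their fold changes were 0.37 and 0.16. Tpp1 was at 71.3 normalised CPM in WT replicate 3, above every Hes1 KO library (62.8 to 68.8), and at 36.0 in WT replicate 2. In WT replicate 1 Tpp1 was at 180 (19 counts, interval 115 to 281), also above Hes1 KO. Its fold change with that library was -0.48. Ppt1 was nearly level between the groups, at 80.6 to 103 normalised CPM in Hes1 KO and at 74.6 and 95.9 in WT replicates 2 and 3. With the stricter filter its fold change was -0.01.

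Per kilobase of exon, the order of levels in Hes1 KO was led by Psap, at 1169 ± 98.5 normalised CPM per kilobase (SD, n = 3). Laptm5 followed at 260 ± 30.7, Lamp1 at 205 ± 24.2, Grn at 129 ± 18.1 and Hexa at 121 ± 12.9, of which Grn and Hexa differed by less than their spread. The lowest were Sgsh at 3.66 ± 0.50 and Mcoln1 at 3.55 ± 0.30 normalised CPM per kilobase, also within their spread of each other. The exon lengths came from GENCODE M21 on GRCm38, which may differ from the annotation used for counting.

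The make-up of the members' own counts does not depend on the scaling between libraries. Psap supplied 37.4%, 35.6% and 37.0% of them in Hes1 KO, 49.7% in WT replicate 1 (Wilson interval 47.1% to 52.4%), 22.1% in WT replicate 2 and 30.2% in WT replicate 3. Hes1 KO thus lay between the WT libraries. Cd63 supplied 0.955%, 1.40% and 1.05% in the knockout libraries and 0.149%, 0.362% and 0.407% in WT replicates 1, 2 and 3, lower in all 3 WT libraries. For Laptm5 these shares were 11.0% to 11.4% in the knockout libraries and 10.7%, 15.7% and 19.7% in WT. Ppt1 supplied 0.938% to 1.13% in Hes1 KO, 0.0746% in WT replicate 1 from a single count, and 2.61% and 2.67% in WT replicates 2 and 3. The 2 deeper WT libraries thus carried a larger part of their lysosomal counts in Laptm5 and Ppt1 and a smaller part in Psap and Cd63 than any Hes1 KO library.

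**Figure D4:**
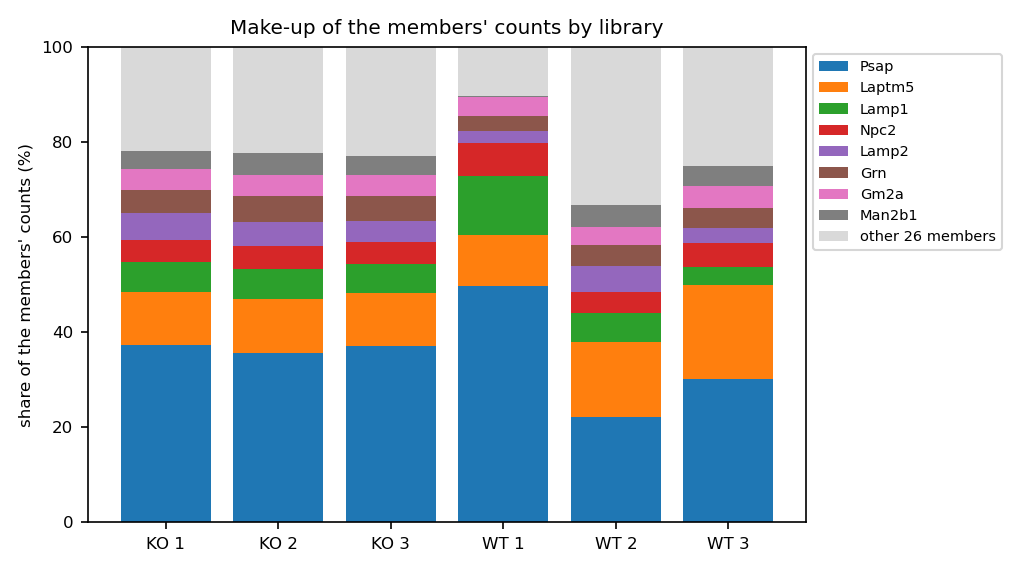
Share (%) of the 34 members' counts that each of the 8 genes listed in the legend supplied in each library, with the other 26 members in light grey (KO stands for Hes1 KO). The 3 Hes1 KO bars are alike, Psap takes 49.7% of WT replicate 1 and 22.1% of WT replicate 2, and Laptm5 takes 19.7% of WT replicate 3.

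Other genes of the lysosome were read from 5 further lists, in which 79 of 80 genes were tested without WT replicate 1. Of these 18 (22.8%) rose and 4 fell, against 7.44% and 8.09% of all genes. With all 6 libraries edgeR called 0 of the 79 tested. There 13 of the 79 had an unadjusted p under 0.05, against 14.9% of all genes. DESeq2 called 4 of the 79, against 793 of all 14756 genes in either direction. Both of these counts were near the share over all genes. The fold changes in these lists are those without WT replicate 1. Among 20 other hydrolases and cofactors 6 rose, including Hgsnat of heparan sulfate breakdown by 2.90 and the phospholipase Pla2g15 by 1.21 (log2, edgeR, adjusted p = 0.03 and 0.0306). In the mannose 6-phosphate route 3 of 10 rose: the cargo retrieval subunit Vps35 by 1.37, the uncovering enzyme Nagpa by 1.60 and the receptor M6pr by 1.07. Among 16 other membrane proteins 4 rose, namely Mfsd1 by 1.19, the metal transporter Slc11a1 of phagocytes by 4.41, Ostm1 by 1.16 and the nucleoside transporter Slc29a3 by 1.10. Slc29a3 was at 398 normalised CPM (42 counts) in WT replicate 1, above every Hes1 KO library (82.3 to 114), and its fold change with all 6 libraries was -0.76. Of 17 tested subunits of the proton pump that acidifies the lysosome 2 rose, Atp6v1b2 by 1.69 and Atp6v1a by 1.26.

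The list of TFEB-family factors and nutrient sensing genes was split, with 3 of 16 rising and 4 falling, against 7.44% and 8.09% of all genes. The Ragulator subunits Lamtor4 and Lamtor1, which anchor mTORC1 signalling at the lysosome, rose by 2.59 and 1.33 (edgeR, adjusted p = 0.0312 and 0.0368). The Rag GTPase Rragd fell by 2.20 and the mTORC1 subunit Rptor fell by 1.01 (adjusted p = 0.0294 and 0.0368). None of the 4 factors of the TFEB family passed, and they are named whatever their values. Tfeb was at 40.7, 68.5 and 45.4 normalised CPM in Hes1 KO and at 66.3 (7 counts), 55.7 and 46.1 in WT replicates 1, 2 and 3, with overlapping groups and a fold change of 0.08 (SE 0.28). Tfe3, Mitf and Tfec had fold changes of 0.59, 1.16 and 2.91. Tfec was uneven in WT, at 94.7 (10 counts), 13.3 and 0.834 normalised CPM in replicates 1, 2 and 3.

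The members' share of a library moved with that of monocyte and macrophage markers. The 34 members together made up 1.01%, 0.949% and 0.904% of counts in Hes1 KO, 2.03% in WT replicate 1 (Wilson interval 1.92% to 2.14%), 0.342% in WT replicate 2 and 0.142% in WT replicate 3. The 15 monocyte and macrophage markers, which include none of the members, made up 0.433%, 0.383% and 0.352% in the knockout libraries and 1.03%, 0.094% and 0.0159% in WT replicates 1, 2 and 3. The 6 libraries stood in the same order by both shares, with WT replicate 1 highest and WT replicate 3 lowest. Of the 12 of these markers tested in the 5-library fit 7 rose, against 7.44% of all genes, with a median log2 fold change of 2.77. In every knockout library Mpeg1, Ly6c2, Ccr2 and Csf1r supplied most of the marker counts. In WT replicate 1, 9 of the 15 markers were at 0, among them Adgre1, Fcgr1, C1qa, C1qb and C1qc. Of the 6 detected there, Ly6c2, Mpeg1, Csf1r and Cx3cr1 lay above every Hes1 KO library in normalised CPM, and Ccr2 and Aif1 lay below. Csf1r was at 587 (62 counts) and Cx3cr1 at 189 (20 counts). The 3 C1q genes had only 5 to 14 counts in a knockout library, so their 0 at this depth says nothing. The 0 of Fcgr1, which had 291 to 558 counts in a knockout library, says little as well. In WT replicate 1, Ly6c2 with 382 counts and Mpeg1 with 188 made up most of its 682 marker counts. For each count of these markers, the knockout libraries held 2.33, 2.48 and 2.57 counts of the members, and WT replicates 1, 2 and 3 held 1.97, 3.64 and 8.92, so that this ratio was higher in both deeper WT libraries than in any Hes1 KO library. Neutrophil markers ordered the libraries differently, with Hes1 KO replicate 2 highest and WT replicate 1 below WT replicate 2. They too put every Hes1 KO library above WT replicates 2 and 3. All 13 neutrophil markers were higher in the 5-library fit, and 1 of them rose, against 7.44% of all genes. Their median log2 fold change was above the 2.77 of the monocyte and macrophage markers. The part of monocytes, macrophages and neutrophils in the members' differences was not tested.

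**Figure D5:**
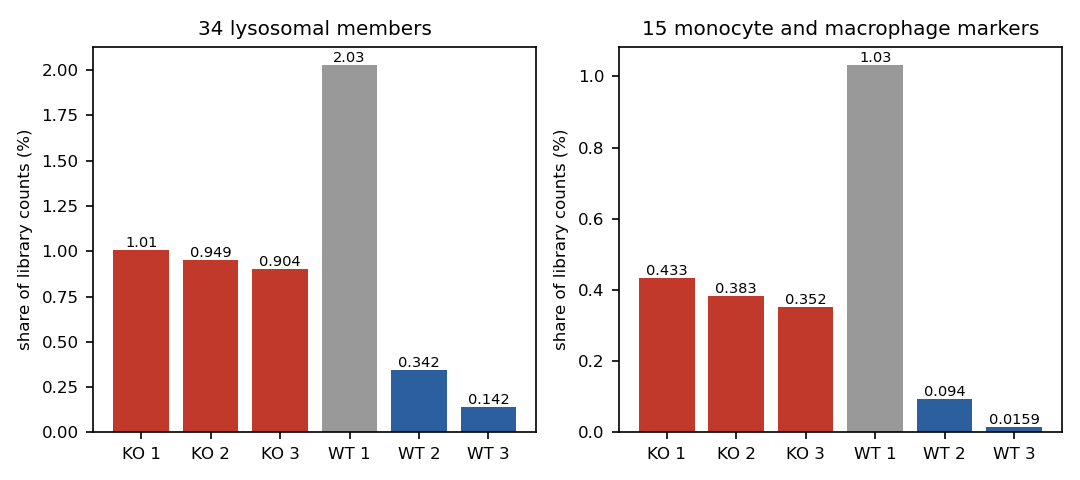
Share of each library's counts (%) taken by the 34 members (left) and by 15 monocyte and macrophage markers (right), with Hes1 KO in red, WT replicate 1 in grey and WT replicates 2 and 3 in blue (KO stands for Hes1 KO). Both sets put WT replicate 1 first (2.03% and 1.03%), then Hes1 KO replicates 1, 2 and 3, WT replicate 2 and WT replicate 3.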

How the data were processed

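Libraries were prepared from total RNA with a stranded mRNA kit, per the labels' protocols. The authors deposited 1 table of raw read counts per gene symbol, made with featureCounts per its name. The submitters' processing notes list the build GRCm39 and the tools edgeR and limma. The aligner, the annotation, the strand setting and the versions are unknown (not given in the sources used here). As the strand setting is unknown, 9 members whose exons overlap a gene on the opposite strand in GENCODE M21 (Lamp1, Npc1, Hexa, Sgsh, Arsa, Arsb, Ppt1, Cln3 and Grn) are uncertain, as is Glb1, which overlaps Tmppe on the same strand.

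Counts were tested with edgeR 4.0.16 (R 4.3.3): filterByExpr, TMM scaling, quasi-likelihood test with legacy dispersions off, Benjamini-Hochberg adjustment over all genes tested and a threshold of 0.05. Standard errors are approximate, from the fold change and the F statistic. Alternatives were other scalings and filters (the stricter one asked for 50 counts in 2 libraries), DESeq2 1.42.0, limma-voom (limma 3.58.1), legacy dispersions, the replicate number as a block, thinning to WT replicate 2, and leaving out each library. The test was checked on simulated data in which all libraries shared the same mean profile apart from genes changed on purpose. The simulation thus lacked the differences in make-up seen between the real WT libraries. The members, lists and the 5-library fit were chosen with earlier results of these data known. Members that passed in either fit, and the 4 with the smallest p in the 6-library fit, are given in full, and up to 4 passing genes of each other list are named, those with the smallest p, of which some are not reported here. Sumf1, the TFEB family and the macrophage genes counted in WT replicate 1 were named after their values were seen.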

Additional observations from a re-analysis of the deposited data

How the results depend on the processing

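Without WT replicate 1 and in the alternatives to that fit, 503 of 510 values of single members kept their direction. The count of members passing there ranged from 0 to 26 when a further library was left out, and the count of all genes from 0 to 6210; the highest counts come from fits with a single WT library, whose spread is taken from Hes1 KO. The main counts were 18 and 2513. With library size alone both counts were 0, and the median fold change of all genes shifted from 0.02 to 0.44 (members 1.54). DESeq2 called 4997 genes (22 members), limma-voom 1440 (13 members) and the thinned counts 1638 (13 members). With all 6 libraries both counts were 0, DESeq2 called 793 genes and 2 members, and leaving out a library gave 0 to 2513 genes and 0 to 18 members. The replicate block gave 0 genes and 0 members in both fits. Same-numbered libraries deviated from their group means with correlations of 0.149, -0.0136 and 0.288, and 4 of 6 libraries correlated best with their own number. These values do not settle whether the numbers pair the libraries. The main fits left pairing out, and their calls depend on that choice.

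The fold changes that turned sign in an alternative to the 6-library fit were those of Npc2, Psap, Lamp1, Ids, Ctns, Manba, Tpp1, Laptm5 and Arsa. Npc2 (0.05) was -0.076 with RLE scaling, -0.27 with library size alone, -0.0031 without erythroid markers, -0.019 with the stricter filter and -0.058 with DESeq2, and ranged from -0.43 to 1.48 over the left-out libraries. Psap (0.26) was -0.10 with library size alone, with a range of -0.26 to 1.96. Lamp1 (-0.18) was 0.94 with limma-voom and 0.81 with the block, Ids (-0.61) was 0.73 and 0.13, Ctns (-0.14) was 0.44 and 0.069 and Manba (-0.05) was 0.45 and 0.14. Without a filter Ctns was 0.075 and Manba 0.11, with legacy dispersions 0.18 and 0.14, and Tpp1 (-0.48) was 0.12 with limma-voom. Over the left-out libraries Lamp1 ranged from -0.67 to 1.87, Ids from -1.12 to 1.16, Ctns from -0.44 to 0.63, Manba from -0.41 to 0.73, Tpp1 from -0.96 to 0.37, Laptm5 from -0.15 to 0.83 and Arsa from -0.046 to 1.03. In the 5-library fit Ppt1 (0.16) was -0.012 with the stricter filter and -0.035 when thinned. Over the left-out libraries Ppt1 ranged from -0.054 to 0.40, Tpp1 from -0.040 to 0.99, Mcoln1 from -0.063 to 0.82 and Gla from -0.47 to 2.11. The cause of these changes was not tested. Depth limits WT replicate 1 most, where 21 of 34 members had 10 or fewer counts.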
